A study of Mus musculus with 15 samples.

Results

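Ngn3-GFP+ cells of the e15.5 mouse pancreas were compared with Sox9-GFP+ cells of the p23 pancreas, as the endocrine and the ductal outcome of cells that pass through Sox9 expression. The comparison set 6 of the 15 arrays of the series against each other, 3 per group, chosen by reporter, age and sort gate as labelled. All 15 arrays, with 3 of Sox9-GFP+ cells at e10.5, entered the fit. Standard errors and p-values thus rest on the spread within all groups of the series. Replicates of every other group correlated more closely than those of Ngn3-GFP+ cells, so a shared spread can understate the errors of that group. A further 3 arrays of e15.5 Sox9-GFP+ cells gave the reference level from which each difference was split into a change on the Ngn3 side and a change on the p23 side, and 3 arrays of GFP- cells at p23 gave a same-age context. The Ngn3-GFP+ cells came from Ngn3-EGFP embryos and all other cells from Sox9-EGFP embryos or pups, on the outbred CD1 background. The embryos had transgenic fathers and wild-type CD1 mothers. EGFP is a stable protein that can mark a cell after the gene driving it has been switched off. The GFP+ sorts took the cells with high GFP signal, and several animals were pooled for each sort, so the p-values measure the spread between pooled sorts and not between single animals. The labels name no lineage tracing, and the 2 groups differ in reporter and in age, so that cell fate and age cannot be told apart in the difference between them.

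Sox9 is a transcription factor of the epithelial cords of the embryonic pancreas, from which duct cells and, by way of brief expression of Neurog3 (Ngn3), endocrine precursors arise. Neurog3 switches on further transcription factors such as Neurod1, Insm1 and Pax4, after which the cells leave the cords, stop dividing and build hormone granules. Duct cells keep Sox9, line the channels that carry acinar enzymes to the gut, and add bicarbonate and fluid through Cftr and partner transporters.

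A level below is log2(intensity + 16) of a gene on one array, and a difference is between group means on that scale with its standard error from the limma fit. This scale understates the change of dim genes, and the number of arrays limits the precision. Calls were made in limma at 0.05 after Benjamini-Hochberg adjustment over the 16882 genes tested, out of 19938 genes with a probe set of their own. Correlations between replicate arrays were 0.950 to 0.965 for Ngn3-GFP+, 0.974 to 0.982 for p23 Sox9-GFP+ and 0.990 to 0.996 for e15.5 Sox9-GFP+ cells. Ngn3-GFP+ replicate 2 was the lowest of its group for many epithelial genes, and this is given with the genes it touches.

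The genes of the 2 reporters were set against the labels, and Neurog3 told e15.5 from p23 arrays but not the 2 e15.5 sorts apart. Neurog3 stood at 11.53, 11.75 and 12.21 in Ngn3-GFP+ cells, at 5.13, 5.25 and 5.06 in Sox9-GFP+ cells at p23, and at 12.12, 11.82 and 11.66 in e15.5 Sox9-GFP+ cells. It was abundant in both embryonic sorts and dim in every p23 array, with a difference of 6.68 ± 0.23 (SE, n = 3 arrays per group, limma adjusted p = 7.03e-11) between the 2 main groups. Between the embryonic sorts the difference was -0.04 ± 0.23 (adjusted p = 0.911), and their arrays overlapped, so the reference arrays also held high levels of this endocrine regulator. In such sorted pools, fewer cells with a transcript and less of it per cell cannot be told apart. Sox9 stood at 11.21, 10.13 and 11.14 in Ngn3-GFP+ cells, at 11.62, 11.94 and 12.10 in Sox9-GFP+ cells at p23, at 12.14, 12.10 and 12.11 in e15.5 Sox9-GFP+ cells, while GFP- cells had 10.08, 9.81 and 8.68. It was lower in Ngn3-GFP+ than in p23 cells by a difference of -1.06 ± 0.32 (adjusted p = 0.0176), without overlap of the groups. This call was lost without Ngn3-GFP+ replicate 2, at a difference of -0.72 (adjusted p = 0.0816), and without p23 replicate 3, at -0.96 (adjusted p = 0.0613).

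Of the genes tested, 5756 (34.1%) differed between Ngn3-GFP+ and p23 Sox9-GFP+ cells. Ngn3-GFP+ cells had 2997 higher (17.8%), 928 of them at least 2-fold, and 2759 lower (16.3%), 1210 of them at least 2-fold. The median difference over all genes was 0.01. The groups did not overlap for 39.7% of all genes. The 10 genes with the largest called difference in favour of Ngn3-GFP+ cells were Serpina6, Neurog3, Cryba2, Isl1, Slc30a8, Zdbf2, Pax6, Nnat, Scgn and Nefm, with differences of 5.66 or more. The 10 in favour of p23 cells were Try4, Reg2, Gp2, Reg3a, Reg3b, Reg3d, Ctrl, Egr2, Cuzd1 and Cxcl2, between -7.82 and -6.32, of which all but Egr2, an immediate early transcription factor, and Cxcl2, a chemokine, belong to the products of acinar cells or to the Reg lectin family. Serpina6 encodes the corticosteroid-binding globulin. Its levels were 11.42, 12.70 and 12.60 in Ngn3-GFP+ cells, 4.76, 5.03 and 5.93 in p23 cells and 12.77, 12.96 and 13.06 in e15.5 Sox9-GFP+ cells. Like Neurog3 it was high in both embryonic sorts, and the call between the main groups (adjusted p = 2.64e-09) came with -7.69 ± 0.35 on the p23 side and -0.69 ± 0.35 (adjusted p = 0.126) on the Ngn3 side.

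The Sox9-GFP+ e15.5 level divided the called genes by the side on which they had moved. Against it, Ngn3-GFP+ cells had 3940 genes higher (23.3%) and 3099 lower (18.4%), with a median over all genes of 0.04. Sox9-GFP+ cells at p23 had 5184 higher (30.7%) and 4526 lower (26.8%), with a median of 0.05. Both of these comparisons use the same 3 reference arrays, so their errors are shared. Of the 2997 genes higher in Ngn3-GFP+ cells, 2087 (69.6%) were below the reference at p23 with no call for a gain in Ngn3-GFP+ cells. A further 293 (9.78%) were both above it in Ngn3-GFP+ cells and below it at p23, 326 (10.9%) were above it in Ngn3-GFP+ cells without a call for a loss at p23, and 291 had neither call. Of the 2759 genes higher at p23, 1388 (50.3%) were above the reference at p23 without a call for a loss in Ngn3-GFP+ cells, 774 (28.1%) were below it in Ngn3-GFP+ cells without a call for a gain at p23, 286 (10.4%) did both, and 311 had neither call. The absence of a call on one side does not show that the gene stayed level there. A gene said to move on 1 side alone had no call in the opposite direction on the other side. It could still be called in the same direction there, as were 286 of the 2087, 8 of the 326, 101 of the 1388 and 59 of the 774. The smaller classes depended on single arrays. The class that was up in Ngn3-GFP+ cells and down at p23 held 153, 188 and 123 genes without replicate 1, 2 or 3 of the reference, and the class up in Ngn3-GFP+ cells alone held 186 without reference replicate 3. The class down in Ngn3-GFP+ cells alone held 490 genes without Ngn3-GFP+ replicate 2 and 499 without reference replicate 3. The class up at p23 and down in Ngn3-GFP+ cells held 438 without Ngn3-GFP+ replicate 1, and 152 and 142 without reference replicates 2 and 3. Leaving out a reference array gave between 490 and 521 genes without a call on either side among those higher in Ngn3-GFP+ cells and between 549 and 611 among those higher at p23.

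**Figure D1:**
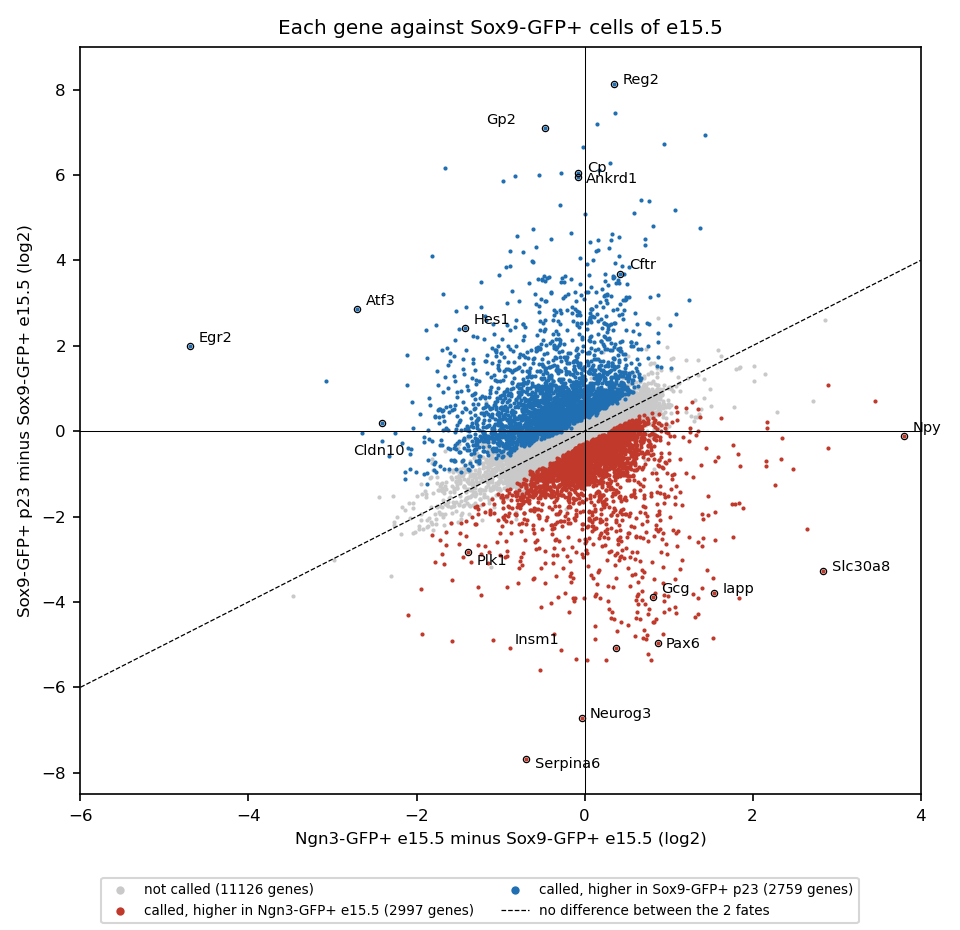
Each point is 1 of the 16882 genes tested, with its difference between Ngn3-GFP+ e15.5 and Sox9-GFP+ e15.5 cells on the x axis and between Sox9-GFP+ p23 and Sox9-GFP+ e15.5 cells on the y axis, both in log2(intensity + 16), coloured by the side on which it was called higher. Genes higher in Ngn3-GFP+ cells lie mostly below zero on the p23 axis, as Neurog3 does at -6.72, while Npy lies far to the right with -0.11 on that axis.

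The early endocrine cascade, the transcription factors that act with or just after Neurog3, had 12 of 16 tested members higher in Ngn3-GFP+ than in p23 cells and 0 lower (1 without Ngn3-GFP+ replicate 3), with a median difference of 3.29. Shares of all genes in this comparison were 17.8% higher and 16.3% lower. On the Ngn3 side 4 of 16 members were above the reference and 1 below (median 0.35), beside 23.3% and 18.4% of all genes. On the p23 side 12 were below it and 2 above (median -2.99), beside 26.8% and 30.7% of all genes. Of the 12 called members, 10 were lower at p23 alone and 2, Rfx6 and Myt1, also rose in Ngn3-GFP+ cells. The mean level of the 16 genes was 10.13, 10.40 and 10.57 in Ngn3-GFP+ arrays and 10.28, 10.16 and 9.96 in the reference. A loss at p23 in this and the other endocrine lists is thus relative to a reference sort that itself held endocrine transcripts. Insm1, a zinc finger repressor that moves precursors out of division, stood at 11.50, 11.41 and 11.62 in Ngn3-GFP+ cells, at 6.11, 6.65 and 5.41 at p23 and at 11.27, 11.17 and 10.98 in the reference. The embryonic arrays lay close together and far above all p23 arrays, with a difference of 5.45 ± 0.23 (adjusted p = 5.88e-10) between the main groups and 0.37 ± 0.23 (adjusted p = 0.214) on the Ngn3 side. Neurod1, a basic helix-loop-helix factor switched on by Neurog3, differed by 5.41 ± 0.29 with 0.60 ± 0.29 (adjusted p = 0.112) on the Ngn3 side. Rfx6, needed for islet cell formation, differed by 5.52 ± 0.23 and was above the reference by 0.75 ± 0.23 (adjusted p = 0.0198). Myt1, another zinc finger factor, did so by 0.83 ± 0.21 (adjusted p = 0.0101). St18, a relative of Myt1, was higher by 4.56 ± 0.20 with no call on the Ngn3 side.

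The later islet regulators specify and maintain the hormone-producing types. Of 19 members 12 were higher in Ngn3-GFP+ cells and 2 lower (median difference 1.12), beside 17.8% and 16.3% of all genes. Of the 12, 7 were lower at p23 alone, 3 moved on both sides and 2 rose in Ngn3-GFP+ cells alone. Pax6, a paired homeodomain factor of all islet cell types, stood at 12.07, 12.61 and 12.16 in Ngn3-GFP+ cells, at 6.78, 6.66 and 5.89 at p23 and at 11.29, 11.64 and 11.30 in the reference. Each Ngn3-GFP+ array was above each reference array, and these above each p23 array, with 0.87 ± 0.21 (adjusted p = 0.00816) on the Ngn3 side and -4.97 ± 0.21 on the p23 side. Isl1, a LIM homeodomain factor of maturing islet cells, had the same order, with 0.79 ± 0.27 (adjusted p = 0.0319) and -5.36 ± 0.27. Mnx1, a homeodomain factor of beta cells, rose by 1.02 ± 0.22 (adjusted p = 0.00419) on the Ngn3 side and fell by 2.02 ± 0.22 on the p23 side. Nkx6-1, a beta cell factor also present in the embryonic cords, differed by 3.45 ± 0.29 with 0.16 ± 0.29 (adjusted p = 0.668) on the Ngn3 side. Mafa, a regulator of mature beta cells, gave no call, at 7.13, 6.99 and 7.03 in Ngn3-GFP+ cells against 7.06, 7.09 and 6.99 at p23. Hhex, a factor of delta cells and of ducts, was 1 of the 2 members lower in Ngn3-GFP+ cells, at -1.13 ± 0.23 (adjusted p = 0.0015).

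Among the islet hormones and peptides, 11 of 13 tested members were higher in Ngn3-GFP+ than in p23 cells and 0 lower (median difference 3.91). Shares of all genes in this comparison were 17.8% and 16.3%. On the Ngn3 side 6 members were above the reference and 1 below (median 0.88), beside 23.3% and 18.4% of all genes. On the p23 side 8 were below it and 0 above (median -2.55), beside 26.8% and 30.7% of all genes. Iapp, the amyloid peptide that beta cells release with insulin, stood at 13.78, 13.89 and 13.55 in Ngn3-GFP+ cells, at 8.30, 8.83 and 8.09 at p23 and at 11.64, 12.60 and 12.36 in the reference. All Ngn3-GFP+ arrays were above all others, by 5.33 ± 0.30 against p23 cells and by 1.54 ± 0.30 (adjusted p = 0.00289) against the reference. Gcg, the glucagon precursor, stood at 13.45, 13.50 and 13.33 in Ngn3-GFP+ cells, at 7.80, 9.23 and 9.12 at p23 and at 12.46, 12.68 and 12.69 in the reference. It differed by 4.71 ± 0.32 (adjusted p = 4.90e-08) between the main groups, and its 0.82 ± 0.32 on the Ngn3 side missed the threshold (adjusted p = 0.054) although the arrays did not overlap. Npy, a peptide made by early islet cells as well as neurons, had another order. Its levels were 12.31, 11.19 and 11.68 in Ngn3-GFP+ cells and 7.86, 7.85 and 7.73 at p23, with a mean of 7.92 ± 0.19 (SD, n = 3) in the reference, so that only the Ngn3-GFP+ arrays were high. Npy gave the largest difference in the class up in Ngn3-GFP+ cells alone, with 3.91 ± 0.23 (adjusted p = 1.38e-08) between the main groups and 3.80 ± 0.23 (adjusted p = 8.95e-07) on the Ngn3 side. Sst, the delta cell hormone, was higher by 4.08 ± 0.46 and Ghrl, the ghrelin precursor, by 4.63 ± 0.39. Ins2, chosen after its values were seen, encodes insulin and was higher by 2.50 ± 0.24. Its p23 Sox9-GFP+ levels of 10.65, 10.70 and 10.39 lay below the 11.97, 11.61 and 11.11 of GFP- cells. The mean level over the 14 measured hormone genes was 7.75, 9.01 and 7.75 in the p23 arrays, and replicate 2, the highest, had Gip at 10.57 and Cck at 8.24 against 7.50 and 5.77, and 5.15 and 4.77, in replicates 1 and 3. The excess of replicate 2 was not limited to these peptides. Its mean over the 17 granin and processing genes was 8.13, against 7.59 and 7.44 in replicates 1 and 3.

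The granins and prohormone processing genes pack and cleave hormones in granules. Of 17 members 15 were higher in Ngn3-GFP+ cells and 2 lower (median difference 3.90), beside 17.8% and 16.3% of all genes. Of all lists of the endocrine side this one had the highest share of members that moved on both sides, 10 of 17. Against the reference 11 were above and 0 below in Ngn3-GFP+ cells (median 0.63), beside 23.3% and 18.4% of all genes. At p23 14 were below it and 1 above (median -3.43), beside 26.8% and 30.7% of all genes. Slc30a8, the zinc transporter of insulin granules, stood at 14.64, 13.68 and 12.99 in Ngn3-GFP+ cells, at 7.68, 7.88 and 7.41 at p23 and at 9.73, 11.64 and 11.41 in the reference. The 3 groups followed each other without overlap, with 2.84 ± 0.48 (adjusted p = 0.00126) on the Ngn3 side and -3.27 ± 0.48 on the p23 side. Chga, the granule protein chromogranin A, rose by 0.93 ± 0.35 (adjusted p = 0.0479) on the Ngn3 side, and Scg2, secretogranin II, by 1.53 ± 0.34 (adjusted p = 0.00507). Pcsk1, the convertase that cuts proinsulin, rose there by 1.01 ± 0.29 (adjusted p = 0.016). Chgb, a defining endocrine marker, gave no call on the Ngn3 side (0.28 ± 0.41, adjusted p = 0.598). Ngn3-GFP+ cells had 13.24, 13.92 and 13.65, against 9.64, 10.95 and 8.52 at p23 and 13.38, 13.41 and 13.18 in the reference, so the embryonic sorts overlapped above every p23 array. The 2 members lower in Ngn3-GFP+ cells were Qpct, an enzyme that cyclises peptide ends, at -2.30 ± 0.40, and Cpd, a carboxypeptidase of most secreting cells, at -0.76 ± 0.24. Qpct and Cpd were chosen after their values were seen, and only 1 member was lower without Ngn3-GFP+ replicate 2, p23 replicate 1 or p23 replicate 2.

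Regulated exocytosis had 18 of 23 members higher and 1 lower in Ngn3-GFP+ cells (median difference 2.24), beside 17.8% and 16.3% of all genes. On the Ngn3 side 12 were above the reference and 3 below, beside 23.3% and 18.4% of all genes. On the p23 side 16 were below it and 2 above, beside 26.8% and 30.7% of all genes. Rimbp2, a scaffold that couples calcium channels to vesicles, was higher by 5.36 ± 0.24 and on the Ngn3 side by 0.70 ± 0.24 (adjusted p = 0.0322). Syt13, a synaptotagmin of endocrine precursors, was higher by 4.35 ± 0.19 and by 1.13 ± 0.19 (adjusted p = 0.00112). Sytl4, the granule docking protein granuphilin, stood at 11.22, 10.95 and 10.68 in Ngn3-GFP+ cells, at 7.47, 7.75 and 7.79 at p23 and at 7.72, 8.17 and 8.27 in the reference. As with Npy, only the Ngn3-GFP+ arrays were high, with 2.89 ± 0.17 (adjusted p = 8.95e-07) on the Ngn3 side and -0.39 ± 0.17 (adjusted p = 0.0665) on the p23 side.

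Glucose sensing and excitability genes had 19 of 21 members higher in Ngn3-GFP+ cells and 0 lower (median difference 2.27), beside 17.8% and 16.3% of all genes. On the Ngn3 side 17 of 21 were above the reference and 0 below (median 0.88), against 23.3% and 18.4% of all genes. On the p23 side 14 were below it and 2 above (median -1.36), beside 26.8% and 30.7% of all genes. Abcc8, the sulfonylurea receptor subunit of the potassium channel that ties glucose use to membrane voltage, stood at 11.68, 11.93 and 11.87 in Ngn3-GFP+ cells, at 6.08, 6.26 and 6.25 at p23 and at 10.19, 10.81 and 10.43 in the reference. The 3 groups did not overlap, with 1.35 ± 0.20 (adjusted p = 0.000669) on the Ngn3 side and -4.28 ± 0.20 on the p23 side. G6pc2, the islet glucose-6-phosphatase, stood at 12.17, 10.54 and 10.23 in Ngn3-GFP+ cells, at 6.57, 5.74 and 5.78 at p23 and at 7.75, 8.74 and 8.51 in the reference. It gained more on the Ngn3 side, by 2.65 ± 0.41 (adjusted p = 0.000782), with replicate 1 the highest array. Kcnk16, a potassium channel of islets, differed by 5.38 ± 0.26 with 0.03 ± 0.26 on the Ngn3 side. Glp1r, the incretin receptor and a name chosen after its values were seen, was above the reference on both sides, by 2.90 ± 0.23 in Ngn3-GFP+ cells and by 1.08 ± 0.23 at p23, while GFP- cells had 9.90, 9.98 and 9.65, about the level of the Ngn3-GFP+ arrays at 9.90, 9.89 and 9.08.

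The neuron-type genes are cytoskeletal and RNA-binding genes that islet precursors share with neurons. Of 25 members 16 were higher in Ngn3-GFP+ cells and 0 lower (1 without p23 replicate 2), beside 17.8% and 16.3% of all genes. Their median difference was 1.06, and 11 of the 16 were lower at p23 alone. Tubb3, a tubulin of neurons, differed by 5.61 ± 0.28 with 0.73 ± 0.28 (adjusted p = 0.0524) on the Ngn3 side. Nefm, a neurofilament subunit, rose on the Ngn3 side by 1.31 ± 0.32 (adjusted p = 0.00785) and at p23 fell by 4.34 ± 0.32. Dcx, a microtubule protein of migrating neurons, did not separate the groups, at 10.92, 9.87 and 10.22 in Ngn3-GFP+ cells and 10.49, 10.53 and 10.52 at p23, while GFP- cells had 6.57, 5.41 and 6.15. Markers of neural and Schwann cells gave 4 of 12 higher and 1 lower in Ngn3-GFP+ cells, beside 17.8% and 16.3% of all genes. Sox10, a defining factor of neural and Schwann cells, was at 7.85, 7.31 and 7.79 against 7.76, 7.76 and 7.79 at p23.

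**Figure D2:**
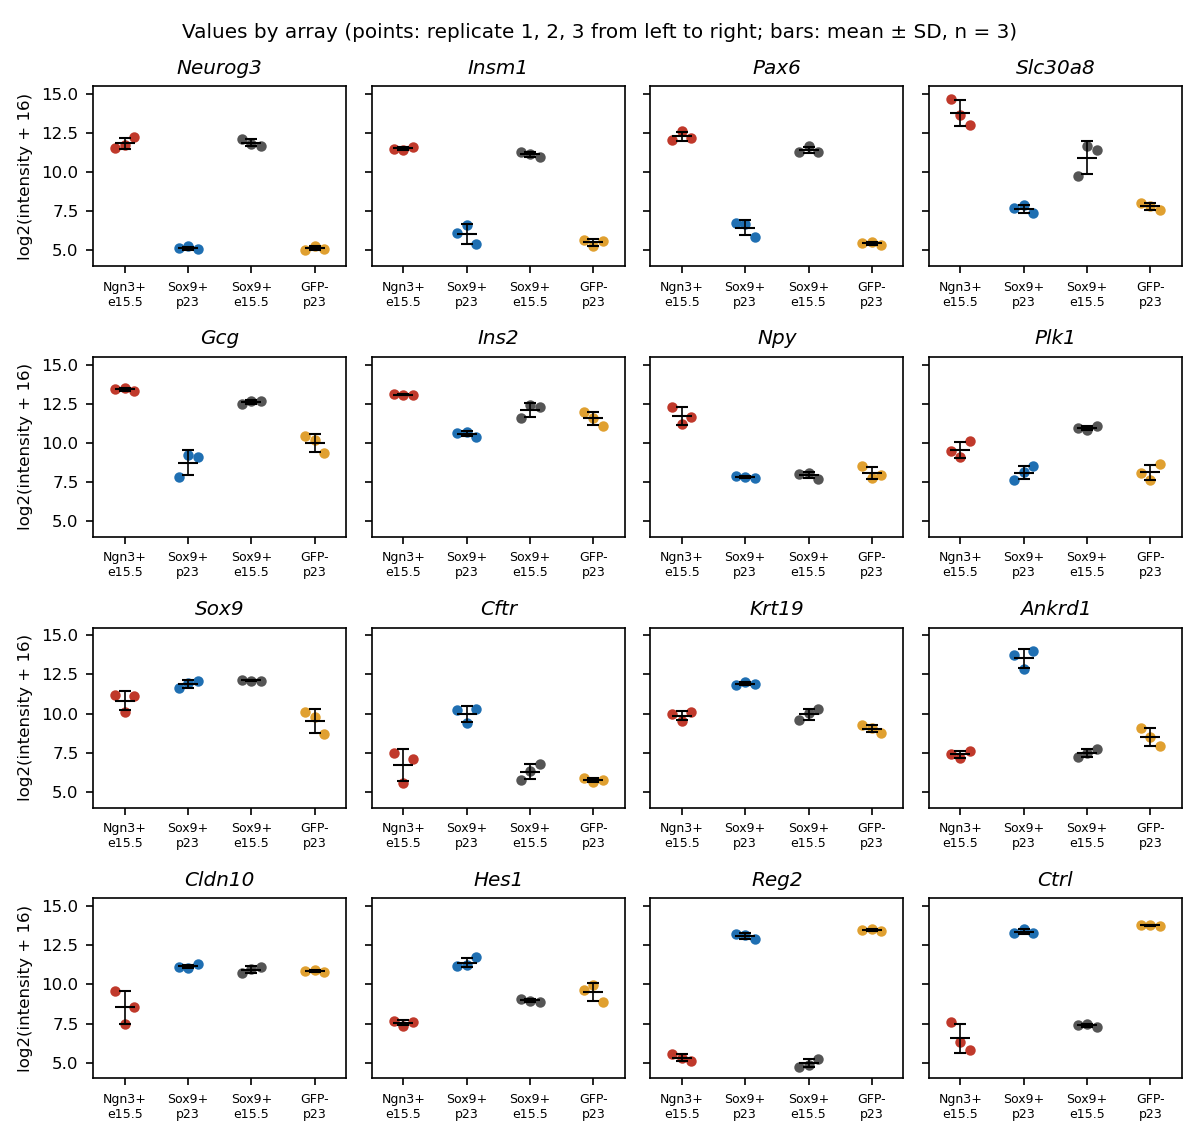
Levels in log2(intensity + 16) of 16 genes in each of the 3 arrays of Ngn3-GFP+ e15.5, Sox9-GFP+ p23, Sox9-GFP+ e15.5 and GFP- p23 cells, 1 point per array, with bars for the group mean ± SD (n = 3). Neurog3 and Insm1 are high in both embryonic sorts and low in both p23 sorts, Npy is high in Ngn3-GFP+ cells only, and Cftr and Ankrd1 are high in Sox9-GFP+ p23 cells only.

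On the ductal side, 33 of 38 ductal markers were lower in Ngn3-GFP+ than in p23 Sox9-GFP+ cells and 2 higher (1 without p23 replicate 2). Their median difference was -1.81, and the shares of all genes were 16.3% and 17.8%. Against the reference, 9 were lower and 1 higher in Ngn3-GFP+ cells (median -0.12), beside 18.4% and 23.3% of all genes. At p23 27 were higher and 2 lower (median 1.55), beside 30.7% and 26.8% of all genes. Of the 33, 22 were higher at p23 alone, 5 lower in Ngn3-GFP+ cells alone and 4 moved on both sides. The mean level of the 38 genes was 9.71, 8.84 and 9.32 in the Ngn3-GFP+ arrays, 11.11, 11.22 and 11.21 in the p23 arrays and 9.40, 9.71 and 9.78 in the reference. The Ngn3-GFP+ arrays lay around the reference, with replicate 2 lowest. Set against GFP- cells of the same age, p23 Sox9-GFP+ cells had 3621 of all genes higher (21.4%) and 2456 lower (14.5%), with a median of 0.07, and 31 of the 38 ductal markers higher and 1 lower (median 2.19).

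Cftr, the chloride and bicarbonate channel of duct cells, stood at 7.49, 5.54 and 7.12 in Ngn3-GFP+ cells, at 10.25, 9.38 and 10.32 in p23 cells, at 5.78, 6.32 and 6.77 in the reference, against 5.88, 5.64 and 5.74 in GFP- cells. The p23 arrays were the only high ones, with -3.27 ± 0.40 (adjusted p = 1.90e-05) between the main groups, 0.43 ± 0.40 (adjusted p = 0.398) on the Ngn3 side and 3.69 ± 0.40 on the p23 side. Krt19, the keratin used to mark ducts, stood at 9.94, 9.53 and 10.13 in Ngn3-GFP+ cells, at 11.80, 12.02 and 11.92 at p23 and at 9.59, 10.01 and 10.28 in the reference, a difference of -2.04 ± 0.22 (adjusted p = 6.46e-06). Krt7, another duct keratin, went the other way, at 11.88, 12.07 and 11.48 in Ngn3-GFP+ cells against 10.59, 11.12 and 10.90 at p23 and 7.58, 7.67 and 6.99 in GFP- cells, higher in Ngn3-GFP+ cells by 0.94 ± 0.19 (adjusted p = 0.00139). Cp, the copper carrier ceruloplasmin, gave the largest difference of the list, -6.04 ± 0.49 (adjusted p = 2.98e-07), with p23 arrays at 11.98, 11.75 and 12.23 and Ngn3-GFP+ arrays at 7.48, 5.40 and 4.97. Anxa3, a calcium-dependent membrane protein, differed by -4.89 ± 0.30. Ehf, an epithelial ETS factor, moved on both sides, by -1.05 ± 0.35 (adjusted p = 0.0278) in Ngn3-GFP+ cells and 1.86 ± 0.35 at p23. Epcam and Cd24a, surface proteins of pancreatic epithelium, gave no call, with Epcam at 11.88, 11.59 and 11.72 in Ngn3-GFP+ cells and 11.86, 11.89 and 12.02 at p23, above the 10.53, 10.41 and 10.21 of GFP- cells.

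Ductal bicarbonate and fluid transport had 15 of 27 tested members lower in Ngn3-GFP+ cells and 1 higher (median difference -0.53), 10 of the 15 by a gain at p23 alone. Shares of all genes were 16.3% lower and 17.8% higher. Car2, a carbonic anhydrase, differed by -2.34 ± 0.27 and Car4, a membrane-bound one, by -2.47 ± 0.25. Ano1, a calcium-activated chloride channel, differed by -2.13 ± 0.32, with Ngn3-GFP+ replicate 2, at 7.32, the lowest of its group. Kcnn4, a calcium-activated potassium channel, differed by -2.17 ± 0.23. Slc4a4, the sodium bicarbonate cotransporter, gave no call, at 10.61, 9.61 and 9.46 in Ngn3-GFP+ cells and 10.42, 10.55 and 10.23 at p23, while GFP- cells had 7.79, 7.38 and 7.38. Without p23 replicates 2 and 3 the count of members lower in Ngn3-GFP+ cells was 8. That setting leaves 1 p23 array, which is assumed to vary like the arrays of the other groups, here and wherever it is used. The 1 higher member was 2 without Ngn3-GFP+ replicate 2.

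Tight junctions and epithelial adhesion had 20 of 29 members lower in Ngn3-GFP+ cells and 2 higher (median difference -1.02), beside 16.3% and 17.8% of all genes. On the Ngn3 side 10 members were below the reference and 0 above (median -0.37), beside 18.4% and 23.3% of all genes. At p23 15 were above it and 4 below (median 0.56), beside 30.7% and 26.8% of all genes. Cldn10, a claudin that forms ion pores between cells, stood at 9.58, 7.47 and 8.55 in Ngn3-GFP+ cells, at 11.10, 11.05 and 11.28 at p23 and at a mean of 10.94 ± 0.22 (SD, n = 3) in the reference. The Ngn3-GFP+ arrays were the low ones, with -2.41 ± 0.34 (adjusted p = 0.000511) on the Ngn3 side and 0.20 ± 0.34 (adjusted p = 0.626) on the p23 side. Dsg2, a desmosomal cadherin, moved on both sides, by -0.73 ± 0.14 (adjusted p = 0.00281) in Ngn3-GFP+ cells and 1.07 ± 0.14 at p23. Gjb2, a gap junction connexin in the class lower in Ngn3-GFP+ cells alone, stood at 6.65, 7.72 and 6.90 in Ngn3-GFP+ cells, at 9.78, 9.74 and 9.59 at p23 and at 9.95, 9.50 and 9.78 in the reference. In the same class Efna5, a membrane-bound guidance ligand, differed by -3.18 ± 0.67, and by -1.96 without Ngn3-GFP+ replicate 2, the array at 4.49 against 7.93 and 8.36 in the others. The 2 members of the list higher in Ngn3-GFP+ cells were 0 without p23 replicate 1 or without p23 replicate 2. They were 1 without Ngn3-GFP+ replicate 2 or 3 and without reference replicate 2 or 3.

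Primary cilium genes, which build the single cilium that duct and islet cells carry and acinar cells lack, were called about as often as genes at large. Of 26 members, 4 were higher and 5 lower in Ngn3-GFP+ cells, beside 34.1% of all genes called. The median difference was 0.05, and it was -0.02 without Ngn3-GFP+ replicate 1. The count of lower members was 3 without Ngn3-GFP+ replicate 2, and 2 without Ngn3-GFP+ replicate 3 or without p23 replicate 3. Against GFP- cells, 21 of the 26 were higher in p23 Sox9-GFP+ cells and 0 lower (median 1.57), beside 21.4% and 14.5% of all genes. Ift88, a transport protein of the cilium, stood at 9.86, 9.81 and 9.57 in Ngn3-GFP+ cells, at 10.08, 9.88 and 10.11 at p23, against 7.74, 8.12 and 8.12 in GFP- cells. The largest difference in the list, -2.61 ± 0.31, belonged to Pkhd1, the cilium and bile duct protein fibrocystin, with Ngn3-GFP+ arrays at 9.73, 8.56 and 8.39 against 11.79, 11.57 and 11.18 at p23.

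**Figure D3:**
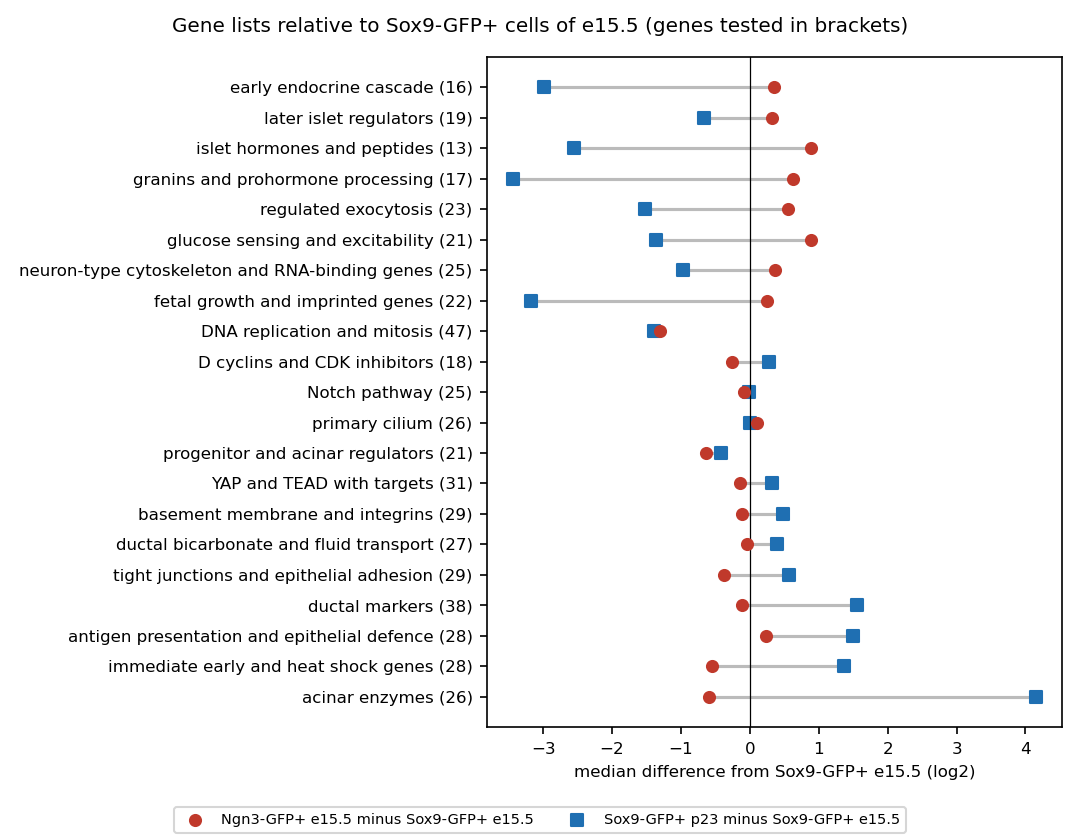
Median difference of the tested members of 21 gene lists, in log2(intensity + 16), for Ngn3-GFP+ e15.5 minus Sox9-GFP+ e15.5 cells and for Sox9-GFP+ p23 minus Sox9-GFP+ e15.5 cells. Endocrine lists lie to the left on the p23 side (granins at -3.43), ductal markers and acinar enzymes to the right (1.55 and 4.15), and DNA replication and mitosis lies to the left on both sides (-1.30 and -1.39).

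The Notch pathway is one through which neighbouring cells hold each other back from endocrine fate. It had 7 of 25 members higher and 6 lower in Ngn3-GFP+ cells, beside 17.8% and 16.3% of all genes. The median difference was 0.05, and it was -0.04 without p23 replicate 3. The 7 higher members were 4 without Ngn3-GFP+ replicate 3 and 3 without p23 replicates 2 and 3. Hes1, the target that represses Neurog3, stood at 7.66, 7.37 and 7.62 in Ngn3-GFP+ cells, at 11.18, 11.25 and 11.72 at p23 and at 9.07, 8.97 and 8.89 in the reference. The 3 groups did not overlap, with -1.42 ± 0.23 (adjusted p = 0.00103) on the Ngn3 side and 2.41 ± 0.23 on the p23 side, and -3.83 ± 0.23 between the main groups. The receptor Notch2 was lower in Ngn3-GFP+ cells by -1.32 ± 0.20 and the target Hey1 by -1.11 ± 0.21, both as a loss on the Ngn3 side alone. Dlk1, a ligand-like imprinted membrane protein, was higher by 4.85 ± 0.22 and Mfng, which modifies Notch receptors, by 0.92 ± 0.20. Nrarp, a feedback inhibitor of Notch, gave no call between the main groups and was below the reference on both sides, by -1.90 ± 0.21 in Ngn3-GFP+ cells and -1.39 ± 0.21 at p23.

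YAP and TAZ (Wwtr1) are coactivators that bind TEAD factors and switch on genes of stretched, spread or growing epithelium. Of 31 genes of this axis 15 were lower and 4 higher in Ngn3-GFP+ cells, beside 16.3% and 17.8% of all genes. Their median difference was -0.50, and 11 of the 15 were higher at p23 alone. Ankrd1, a nuclear ankyrin protein and well known YAP target, stood at 7.40, 7.16 and 7.63 in Ngn3-GFP+ cells, at 13.75, 12.86 and 14.00 at p23, at 7.21, 7.48 and 7.73 in the reference, against 9.06, 8.49 and 7.95 in GFP- cells. Only the p23 Sox9-GFP+ arrays were high, with -6.14 ± 0.29 (adjusted p = 1.08e-09) between the main groups and 6.06 ± 0.29 on the p23 side. Ccn1, a secreted matrix protein, stood at 9.71, 8.85 and 9.53 in Ngn3-GFP+ cells, at 13.31, 13.11 and 13.36 at p23 and at 11.29, 11.53 and 11.58 in the reference. It moved on both sides, by -2.11 ± 0.28 (adjusted p = 0.000302) in Ngn3-GFP+ cells and 1.79 ± 0.28 at p23. Ccn2, its relative, differed by -1.86 ± 0.20 and Tgfb2, a growth factor, by -2.42 ± 0.20. Wwtr1 itself was lower in Ngn3-GFP+ cells by -1.29 ± 0.16 (adjusted p = 2.51e-05), and Yap1 gave no call, at 9.27, 9.69 and 9.31 in Ngn3-GFP+ cells and 9.88, 9.62 and 9.95 at p23. Wwtr1 was chosen after its values were seen. Ajuba, an adaptor of the pathway, differed by -1.76 ± 0.49, and by -0.94 without Ngn3-GFP+ replicate 2, which stood at 5.09.

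The promoters of Ankrd1 and Ccn1 are shown because these 2 genes gave the largest differences of the YAP and TEAD list and the TEAD binding motif GGAATG could be looked for on both strands. The windows are RefSeq sequence of GRCm38.p6, from 250 bases before to 50 after the start, 5' to 3' on the gene's strand, with the motif or its reverse complement CATTCC in capitals.
Ankrd1: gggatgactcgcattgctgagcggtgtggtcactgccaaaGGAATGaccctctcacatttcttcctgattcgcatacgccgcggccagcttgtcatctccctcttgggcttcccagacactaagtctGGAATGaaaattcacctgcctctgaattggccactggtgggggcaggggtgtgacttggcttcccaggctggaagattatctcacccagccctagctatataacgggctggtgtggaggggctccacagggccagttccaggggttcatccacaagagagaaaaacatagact
Ccn1: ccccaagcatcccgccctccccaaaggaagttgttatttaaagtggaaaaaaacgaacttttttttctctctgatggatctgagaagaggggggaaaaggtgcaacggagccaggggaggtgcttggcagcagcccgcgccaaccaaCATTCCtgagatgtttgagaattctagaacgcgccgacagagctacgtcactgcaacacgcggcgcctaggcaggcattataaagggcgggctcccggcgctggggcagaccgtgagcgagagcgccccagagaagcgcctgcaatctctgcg
The Ankrd1 window lies at chr19:36119795-36120094 on the minus strand and holds 2 matches, 210 and 123 bases before the start. The Ccn1 window lies at chr3:145649936-145650235 on the minus strand and holds 1 match on the opposite strand, 103 bases before the start. The motif was found in 13 of 30 windows of the list (43.3%), for 11 of the 24 genes that had a window, and in 4817 of 32851 windows of all genes (14.7%). Such a match describes the letters and is not evidence of binding in these cells. The E-box CAGATG, a motif that Neurog3 and Neurod1 can bind, was in 3 of 16 windows of the early endocrine cascade (18.8%) and in 17.2% of all windows.

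Regulators of progenitors and acinar cells had 4 of 21 members higher and 8 lower in Ngn3-GFP+ cells, beside 17.8% and 16.3% of all genes. Medians were below zero on both sides, -0.64 in Ngn3-GFP+ cells (11 below the reference, 3 above) and -0.41 at p23 (10 below, 4 above). Shares of all genes below and above the reference were 18.4% and 23.3% in Ngn3-GFP+ cells, and 26.8% and 30.7% at p23. The count of 8 was 5 without p23 replicate 1 or 2. Ptf1a, the factor of early progenitors and acinar cells, stood at 6.32, 6.44 and 7.47 in Ngn3-GFP+ cells, at 7.27, 7.07 and 6.77 at p23 and at 8.78, 8.71 and 9.15 in the reference. It fell on both sides, by 2.14 ± 0.31 (adjusted p = 0.000541) and by 1.85 ± 0.31 (adjusted p = 0.000282), and did not separate the main groups. Id1 and Id3, inhibitors of basic helix-loop-helix factors, likewise fell on both sides, Id1 by 2.23 ± 0.28 in Ngn3-GFP+ cells and 2.01 ± 0.28 at p23, and Id3 by 2.19 ± 0.38 in Ngn3-GFP+ cells and 2.41 ± 0.38 at p23. Myc, a growth regulator, was lower in Ngn3-GFP+ cells by -2.26 ± 0.29 as a loss on the Ngn3 side alone. Hnf4a, a nuclear receptor of endodermal cells, was higher by 1.24 ± 0.17 and moved on both sides.

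Genes of DNA replication and mitosis were below the reference on both sides and mostly did not separate the main groups. In Ngn3-GFP+ cells 46 of 47 members fell (median -1.30), at p23 45 of 47 fell (median -1.39), and 0 rose on either side. Among all genes 18.4% fell in Ngn3-GFP+ cells and 26.8% at p23. Between the main groups 7 were higher and 3 lower in Ngn3-GFP+ cells (median difference 0.14), beside 17.8% and 16.3% of all genes. These counts varied with single arrays: 14 were higher without Ngn3-GFP+ replicate 2 and 13 without p23 replicate 3, and 6 were lower without Ngn3-GFP+ replicate 1. Top2a, a topoisomerase of dividing cells, stood at 10.51, 9.91 and 10.37 in Ngn3-GFP+ cells, at 9.79, 10.02 and 10.47 at p23 and at 11.65, 11.46 and 11.58 in the reference, so the main groups overlapped below the reference. Plk1, a kinase of mitotic entry, was the most different member, at 9.48, 9.07 and 10.10 in Ngn3-GFP+ cells against 7.63, 8.17 and 8.51 at p23, a difference of 1.45 ± 0.28 (adjusted p = 0.00101). Pola1, the catalytic subunit of the priming polymerase, was lower in Ngn3-GFP+ cells by -1.02 ± 0.18 (adjusted p = 0.000422). Of 18 D cyclins and CDK inhibitors, which set entry into the cycle, 4 were higher and 7 lower in Ngn3-GFP+ cells. Among all genes these shares were 17.8% and 16.3%. Cdkn1c, the imprinted inhibitor p57, was higher by 2.96 ± 0.15 and Ccnd1, cyclin D1, lower by -2.45 ± 0.39 with Ngn3-GFP+ replicate 2 at 8.08 against 10.24 and 9.93.

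Fetal growth and imprinted genes had 18 of 22 members higher in Ngn3-GFP+ cells and 1 lower (median difference 2.74), beside 17.8% and 16.3% of all genes. On the Ngn3 side 5 were above and 3 below the reference (median 0.24), beside 23.3% and 18.4% of all genes. At p23 17 were below it and 1 above (median -3.18), beside 26.8% and 30.7% of all genes. Igf2, the fetal insulin-like growth factor, stood at 8.89, 10.25 and 11.19 in Ngn3-GFP+ cells, at 5.41, 6.36 and 5.98 at p23 and at 11.26, 10.70 and 11.04 in the reference. Both embryonic sorts were above p23, without overlap (adjusted p = 2.21e-06 between the main groups). Peg10, an imprinted gene derived from a retrotransposon, was higher by 5.61 ± 0.23 with 0.26 ± 0.23 on the Ngn3 side. Nnat, an imprinted membrane protein of neurons and beta cells, rose on the Ngn3 side by 1.84 ± 0.37 (adjusted p = 0.0036) and Zdbf2, another imprinted gene, by 0.76 ± 0.23 (adjusted p = 0.0175). Age and fate cannot be told apart in the 18 calls. The 1 lower member was not called without Ngn3-GFP+ replicate 3 or without p23 replicate 3.

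**Figure D4:**
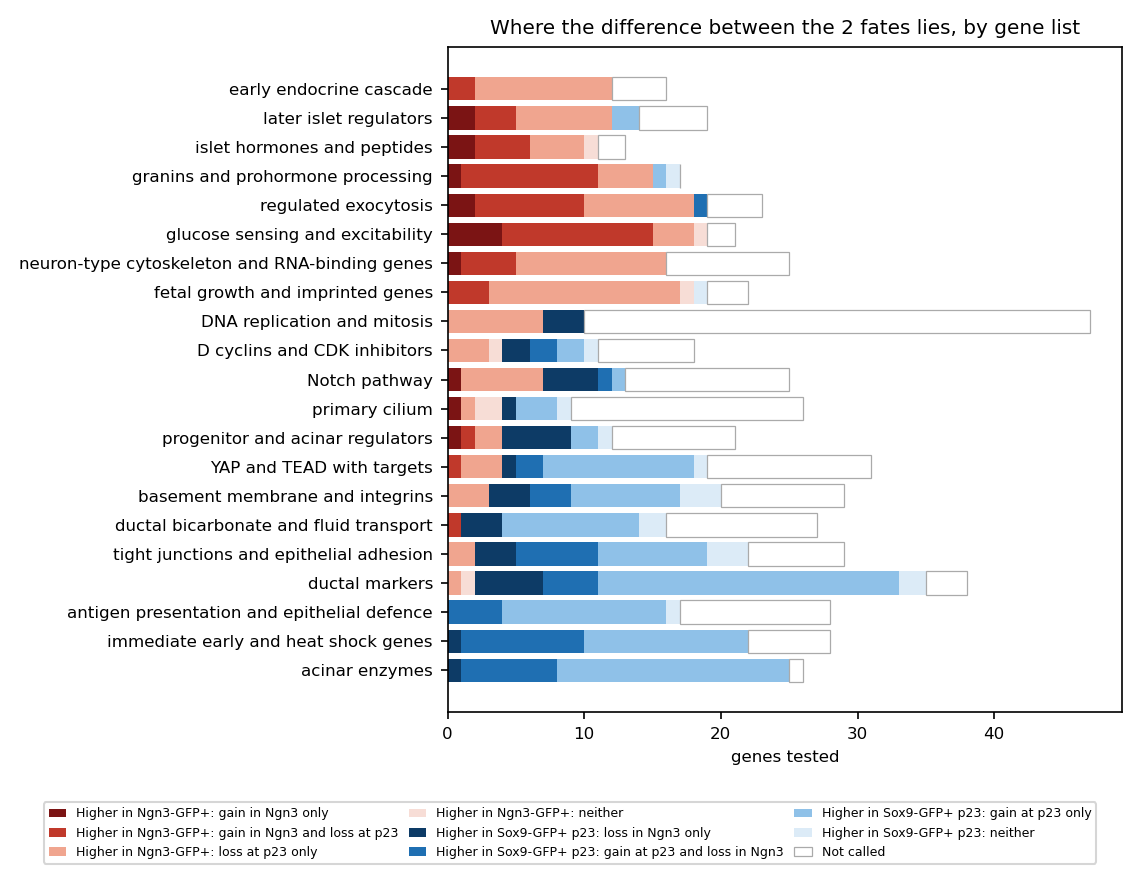
Number of tested members of 21 gene lists in each class of the called genes, by which side differed from Sox9-GFP+ e15.5 cells, with genes higher in Ngn3-GFP+ cells and genes higher in Sox9-GFP+ p23 cells as separate classes and uncalled members as the rest of the bar. In the early endocrine cascade 10 of 12 calls are losses at p23 alone, against a reference that itself held these transcripts. In glucose sensing and excitability 11 of 19 calls moved on both sides. Alone means without a call in the opposite direction on the other side.

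Several groups that were high at p23 are not known as duct genes. All 26 acinar enzymes had groups that did not overlap, beside 39.7% of all genes. Of these enzymes 25 were lower in Ngn3-GFP+ than in p23 Sox9-GFP+ cells (median difference -4.46), beside 16.3% of all genes. Their mean level was at most 9.20 in a Ngn3-GFP+ array, 13.00, 13.11 and 12.89 at p23, 8.29, 9.31 and 9.85 in the reference and 13.50, 13.51 and 13.39 in GFP- cells. The p23 Sox9-GFP+ arrays were thus near the GFP- arrays, with 0 of 26 called higher and 3 lower between those sorts (median -0.34). Shares of all genes there were 21.4% and 14.5%. Whether acinar cells, their free RNA or duct cells carried these transcripts was not tested. Reg2, a secreted lectin of acinar cells, stood at 5.52, 5.32 and 5.09 in Ngn3-GFP+ cells, at 13.22, 13.17 and 12.90 at p23, against 13.49, 13.54 and 13.39 in GFP- cells. Try4, a trypsinogen, differed by -7.82 ± 0.91, with reference replicate 3 at 9.91 against 4.71 and 4.96 in the others. Probe sets of trypsinogens and of the Reg3 genes can respond to near-identical relatives, so single members are uncertain. Cpa1, a carboxypeptidase also made by embryonic tip cells, was lower in Ngn3-GFP+ cells as a loss on the Ngn3 side, by 1.72 ± 0.26 (adjusted p = 0.000716). Ctrb1, chymotrypsinogen, gave no call and was high in every group, at 13.28, 13.33 and 13.37 in Ngn3-GFP+ cells and 13.90, 13.93 and 13.81 at p23.

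Immediate early and heat shock genes respond within minutes to growth factors and to handling of the tissue. Of 28 members 22 were lower in Ngn3-GFP+ cells and 0 higher (median difference -2.28), beside 16.3% and 17.8% of all genes. On the Ngn3 side 10 were below the reference and 3 above, beside 18.4% and 23.3% of all genes. At p23 24 were above it and 0 below, beside 30.7% and 26.8% of all genes. Their mean level was 8.87, 8.62 and 8.82 in Ngn3-GFP+ cells, 11.25, 10.91 and 11.11 at p23, 9.18, 9.74 and 9.69 in the reference and 10.84, 11.03 and 10.62 in GFP- cells, so both p23 sorts were high. Egr2 stood at 5.84, 5.35 and 5.50 in Ngn3-GFP+ cells, at 12.62, 11.76 and 12.36 at p23 and at 9.78, 10.64 and 10.37 in the reference. It fell by 4.70 ± 0.30 (adjusted p = 1.22e-06) on the Ngn3 side and rose by 1.98 ± 0.30 at p23. Atf3, a stress-induced factor, differed by -5.56 ± 0.79 with Ngn3-GFP+ replicate 2 at 4.78 against 9.13 and 8.39. Several YAP targets, Ccn1 among them, are also immediate early genes, and the part of tissue handling in either list was not tested.

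Antigen presentation and epithelial defence had 17 of 28 members lower in Ngn3-GFP+ cells and 0 higher (median difference -1.78), beside 16.3% and 17.8% of all genes. At p23 23 were above the reference and 0 below, beside 30.7% and 26.8% of all genes. Against GFP- cells, 5 of the 28 were higher and 15 lower in p23 Sox9-GFP+ cells (median -0.60), beside 21.4% and 14.5% of all genes. The mean level of the 29 measured genes was 9.43, 9.61 and 9.54 in p23 Sox9-GFP+ cells, with GFP- cells at 10.12, 10.20 and 10.23. B2m, the light chain of class I molecules, stood at 10.15, 9.37 and 9.61 in Ngn3-GFP+ cells, at 12.38, 12.46 and 12.74 at p23 and at 10.47, 10.55 and 10.77 in the reference. Pigr, the transporter of secretory antibodies across epithelium, differed by -3.42 ± 0.22 and was among the 5 members higher than in GFP- cells, with p23 arrays at 9.47, 10.05 and 10.46 against 7.38, 7.34 and 7.86 in GFP- cells. B2m and Pigr were chosen after their values were seen. Cxcl16, a membrane-bound chemokine, differed by -4.12 ± 0.25. Basement membrane and integrin genes had 17 of 29 members lower and 3 higher in Ngn3-GFP+ cells (median difference -0.63), beside 16.3% and 17.8% of all genes. Itgb8, an integrin that activates TGF-beta, differed by -3.59 ± 0.37, and Cd44, a hyaluronan receptor of epithelium and leukocytes, by -2.85 ± 0.16. Lama3, a laminin chain of epithelial basement membrane, differed by -1.38 ± 0.11.

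Markers of other cell types were checked in the same arrays, where 17.8% of all genes were higher and 16.3% lower in Ngn3-GFP+ cells. Of 24 leukocyte markers 5 were lower in Ngn3-GFP+ than in p23 cells and 0 higher, a count that was 13 with array weights, 8 without p23 replicate 1 and 3 without p23 replicates 2 and 3. Their mean level was 7.32, 6.97 and 7.15 in Ngn3-GFP+ cells, 7.47, 7.98 and 7.65 at p23, 6.77, 6.72 and 6.77 in the reference and 10.45, 10.68 and 10.90 in GFP- cells. Ptprc (CD45), the common leukocyte antigen, stood at 7.19, 6.93 and 6.93 in Ngn3-GFP+ cells, at 8.12, 10.64 and 10.09 at p23, against 14.28, 14.41 and 14.64 in GFP- cells, so every p23 array lay between the embryonic and the GFP- arrays, with replicates 2 and 3 the higher. It differed by -2.60 ± 0.43 (adjusted p = 0.000274), and by -1.10 without p23 replicates 2 and 3. Cd52 and Laptm5, the other defining leukocyte markers, gave no call. Against the reference, Ngn3-GFP+ cells had 10 of 24 leukocyte markers higher and 1 lower, and p23 cells 19 higher and 0 lower. Of 20 endothelial markers 9 were higher and 0 lower in Ngn3-GFP+ cells, and 16 higher and 1 lower at p23. Mesenchyme and stellate markers had 7 of 22 higher and 1 lower in Ngn3-GFP+ cells, and 6 higher and 0 lower at p23. Shares of all genes higher were 23.3% in Ngn3-GFP+ cells and 30.7% at p23. Between the main groups, 2 of 20 endothelial markers were higher in Ngn3-GFP+ cells and 4 lower. Of the mesenchyme and stellate markers 0 of 22 were higher and 2 lower, and of the erythroid markers 1 of 8 was higher and 0 lower. Single arrays decided these counts: 5 mesenchyme markers were higher without Ngn3-GFP+ replicate 1 and 5 lower without Ngn3-GFP+ replicate 3, while the endothelial markers had 2 lower without p23 replicate 1, 1 lower without p23 replicate 2, and 1 higher without Ngn3-GFP+ replicate 3, p23 replicate 1 or p23 replicate 3. The part of leukocytes in the antigen presentation and matrix lists was not tested. With replicate 1 as the only p23 array, the median difference of antigen presentation genes was -1.15 and that of leukocyte markers -0.15, against -1.78 and -0.34 with all p23 arrays, while ductal markers had -1.64, acinar enzymes -4.44 and immediate early genes -2.32.

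**Figure D5:**
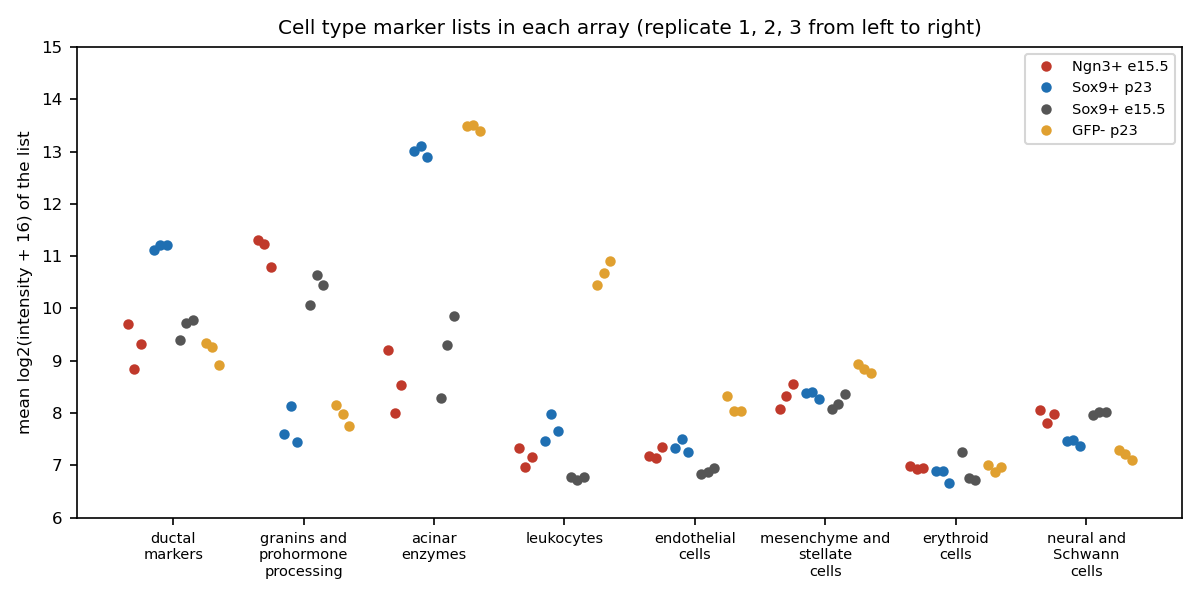
Mean level in log2(intensity + 16) of 8 marker lists in each of the 3 arrays of Ngn3-GFP+ e15.5, Sox9-GFP+ p23, Sox9-GFP+ e15.5 and GFP- p23 cells. Granin genes are highest in Ngn3-GFP+ cells (10.80 to 11.30), ductal markers in Sox9-GFP+ p23 cells (11.11 to 11.22), and acinar enzymes are near 13 in both p23 sorts.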

How the data were processed

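The deposited table held 35557 probe sets on 15 arrays as linear intensity values produced by the authors, for which the submitters' processing notes list PLIER and Affymetrix Expression Console 1.1. How arrays were normalized against each other is not given in these sources. RNA was amplified before labelling, per the labels' protocols. From the deposited intensity values log2(intensity + 16) was computed. Of the probe sets, 21789 named 1 gene, and 1621 naming several and 12147 unnamed here were left out. Each gene was represented by its probe set of highest mean over the 15 arrays, and 16882 of 19938 genes, above 97.82 in at least 3 arrays, were tested. Array medians ranged from 165.5 to 211.7. All 15 arrays entered 1 limma fit (limma 3.58.1, R 4.3.3) with Benjamini-Hochberg adjustment. The code was tested on simulated data with independent noise of equal spread in all groups. Such data do not copy the lower correlation among Ngn3-GFP+ replicates, so they cannot show how the fit performs on these arrays. Probe sets of near-identical gene families may detect transcripts of their relatives, and this was not tested.

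The arrays, comparisons and 26 gene lists were chosen with earlier results of these data known. Genes were named by rule: Sox9 and Neurog3, the 10 largest non-overlapping called differences in each direction, the 5 largest of each class, the largest called differences of each list (up to 6), and list members whose lack of change matters. Hhex, Gip, Cck, Ift88, Ins2, Glp1r, Qpct, Cpd, Wwtr1, B2m and Pigr were added after their values were seen, beside defining cell type markers. Alternatives covered normalization, pseudocount, filter, probe set choice, samples fitted, array weights, a fold threshold, a replicate block and single arrays left out.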

Additional observations from a re-analysis of the deposited data

How the results depend on the processing

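Of 24 alternatives, the count of a side only at 2-fold or more was run for the classes alone. Over the others the direction of none of the 158 genes picked by rule as called reversed (3528 values kept their side of the threshold and 106 lost the call). Other genes named in the text were not among these 158. Settings that changed only the filter, the test or the arrays used for the spread left each difference as it was, so no reversal was possible there. Nor could genes picked for groups that do not overlap reverse when arrays were left out, weighted or given another pseudocount. The lack of reversals is therefore no test of robustness for them. Of the counts over gene lists, 1100 stayed within 1.5 times and 96 moved further. Genes called between Ngn3-GFP+ e15.5 and Sox9-GFP+ p23 cells numbered 5756 as reported, 3706 (1879 higher, 1827 lower) when only the 6 arrays of both groups were fitted, and 1559 (705 and 854) when tested against a 1.5-fold change. Median centring lowered the share of higher calls to 45.84%, against 52.07% as reported. For genes higher in Ngn3-GFP+ cells, median centring gave 127 up in Ngn3-GFP+ cells alone and 125 moved on both sides, quantile normalization gave 587 with neither call, and array weights gave 60 with neither call. The 1.5-fold test gave 13 up in Ngn3-GFP+ cells alone, 498 down at p23 alone, 10 on both sides and 184 with neither. For genes higher at p23, array weights gave 486 on both sides and 76 with neither, and the 1.5-fold test gave 478 up at p23 alone, 22 down in Ngn3-GFP+ cells alone and 7 on both sides. Counting a side only at 2-fold or more gave 38, 935, 48 and 1976 genes higher in Ngn3-GFP+ cells (up in them alone, down at p23 alone, both, neither) and 693, 278, 60 and 1728 genes higher at p23 (up at p23 alone, down in Ngn3-GFP+ cells alone, both, neither). Without p23 replicates 2 and 3, an alternative chosen after seeing the data that leaves 1 p23 array, assumed to vary like the arrays of the other groups, 1623 genes were lower in Ngn3-GFP+ cells, 173 were up in them alone and 159 had neither call, and among genes higher at p23 the classes held 902, 366, 176 and 179 in the order above. Fewer samples or a stricter threshold is part of several of these settings by construction, and the cause of the other shifts was not tested. Leaving out 1 array at a time gave 4830 to 5993 genes called, 2391 to 2991 higher and 2370 to 3051 lower. The classes then held 186 to 360, 1490 to 2216, 123 to 290 and 231 to 521 genes higher in Ngn3-GFP+ cells, and 1150 to 1403, 490 to 995, 142 to 438 and 236 to 611 higher at p23, in the same orders. Deviations of same-numbered arrays correlated at -0.183 to 0.198 over 9 pairs and those of other pairs at -0.18 to 0.143 over 18. Between p23 and e15.5 Sox9-GFP+ arrays, same-numbered pairs gave 0.157, 0.030 and 0.198, and other pairs -0.180 to 0.007. Between Ngn3-GFP+ and e15.5 Sox9-GFP+ arrays, same-numbered pairs gave -0.183, -0.003 and 0.045, and other pairs -0.136 to 0.143. With 3 arrays per group these values cannot decide whether same-numbered arrays shared a batch. The replicate block gave 5460 genes called (2831 higher, 2629 lower). Genes near background have understated differences, and 3 arrays per group limit the precision.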

Other observations

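The pooled sorts differed in sex-linked transcripts, whose values belong to no comparison above and were chosen after they were seen. Xist, expressed from the inactive X chromosome of females, was at 12.23, 12.17 and 12.08 in Ngn3-GFP+ cells, at 12.49, 12.78 and 6.04 in Sox9-GFP+ cells at p23 and at 11.67, 11.01 and 12.00 in GFP- cells at p23. Kdm5d, a Y-linked demethylase, was at 9.24, 8.72 and 9.04 in Ngn3-GFP+ cells, at 9.37, 5.03 and 10.07 in Sox9-GFP+ cells at p23 and at 8.38, 9.36 and 4.76 in GFP- cells. Eif2s3y, a Y-linked translation factor, was at 10.13, 10.31 and 9.47 in Ngn3-GFP+ cells, at 10.18, 4.27 and 10.64 in Sox9-GFP+ cells at p23 and at 9.11, 10.15 and 4.32 in GFP- cells. Thus p23 replicate 3 was low for Xist, and p23 replicate 2 and GFP- replicate 3 were low for both Y-linked genes, while each embryonic pool of Ngn3-GFP+ cells was high for all 3 genes.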
